A study of Mus musculus with 3 samples.

Results

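Collagen genes other than those of cartilage were followed in the stromal cells of day 5 ectopic masses in mice. All gene symbols of the form Col, a number, a and a number were taken, and the 8 genes of the cartilage collagens II, IX, X, XI and XXVII were left out. This left 36 genes of 44 collagen genes and of 31053 genes in the count tables. Stromal cells were cells in which Col1a1, Col1a2, Col3a1, Dcn and Lum together made up at least 1% of the unique molecular identifiers (UMIs, counts of captured transcripts). They were split by detection of at least 1 UMI of Pi16, a gene of fibroblast progenitors found around vessels in many tissues, and of Acan, which encodes the cartilage proteoglycan aggrecan. Of the 36 genes, 23 reached 10 CPM (the UMIs of a gene scaled to a fixed total for each set of cells) in stromal cells of at least 1 library and are given one by one.

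The mice were CD-1 females of 6 to 8 weeks of age that received subdermal implants of Matrigel, a basement membrane extract, and the masses were taken on day 5. Matrigel-only mice had an implant without added BMP2 and were given nothing by mouth. Vehicle and Palo mice both had recombinant human BMP2, an inducer of cartilage and bone, in the implant, and were gavaged with corn oil/DMSO or with palovarotene, an agonist of the retinoic acid receptor gamma, at 4 mg/kg. The masses of a group went into 1 library, so animals cannot be told apart, there is no replicate check and no test between conditions was possible. Vehicle and Palo both differ from Matrigel-only in BMP2 and in gavage, and those cannot be told apart.

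Collagens are triple helices of 3 chains, secreted and assembled outside the cell into very different structures. Types I, III and V form the banded fibrils of skin, tendon and granulation tissue, and fibril-associated types such as XII and XIV decorate their surface. Type IV chains build the sheet of basement membranes, which lie under epithelia and around vessels, muscle and fat cells. Type VI makes beaded filaments close to cells, type VII anchors epithelium to the underlying matrix, and types XV and XVIII sit between basement membranes and the fibrils. During cartilage formation, mesenchymal cells replace a fibrillar matrix of types I and III by one of types II, IX and XI.

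The starts of several of these genes lie side by side in the genome, and stretches upstream of 3 type IV genes from such pairs and of 4 genes called between libraries, as examples, are shown here, on build GRCm38.p6. The type IV genes come as pairs read in opposite directions. Col4a1 (chromosome 8, 11198423 to 11312826, minus strand) and Col4a2 (11312805 to 11449287, plus strand) overlap by 22 bases at their 5′ ends. Col4a4 and Col4a3 are 71 bases apart on chromosome 1, and Col4a6 and Col4a5 are 1308 bases apart on chromosome X. Col5a3 (20770050 to 20815067) and Col6a6 (105687809 to 105828160) are both on the minus strand of chromosome 9. Col6a5 is on the same strand, and 27917 bases lie between its 3′ end and the 5′ end of Col6a6. Each stretch is written 5′ to 3′ on the strand of its gene, ends at the base before the gene and holds no annotated exon. The sequences are those of RefSeq, which had a start for 29 of the 36 genes, with none for Col1a1, Col4a3, Col5a2, Col12a1, Col14a1, Col22a1 and Col26a1. Capitals mark, on either strand, the GC box letters GGGCGG, the CAAT box letters CCAAT, the TATA box letters TATAAA, the nuclear receptor core letters AGGTCA and the letters GGCGCC. In these stretches no marked letters overlap.
Col4a4, the whole 71 bases shared with Col4a3 (chr1:82586850-82586920, minus strand): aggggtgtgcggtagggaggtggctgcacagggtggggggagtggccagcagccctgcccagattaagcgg
Col4a5 (chrX:141475169-141475384, plus strand): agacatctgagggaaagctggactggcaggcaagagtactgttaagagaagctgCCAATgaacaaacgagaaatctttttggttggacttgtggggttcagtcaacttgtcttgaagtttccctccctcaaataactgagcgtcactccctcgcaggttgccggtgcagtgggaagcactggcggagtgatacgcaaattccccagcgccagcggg
Col4a6 (chrX:141474077-141474326, minus strand): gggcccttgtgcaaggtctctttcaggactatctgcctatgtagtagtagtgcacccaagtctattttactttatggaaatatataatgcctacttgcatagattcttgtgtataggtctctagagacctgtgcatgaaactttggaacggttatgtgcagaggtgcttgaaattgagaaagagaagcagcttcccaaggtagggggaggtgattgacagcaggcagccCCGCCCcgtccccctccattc
Col5a3 (chr9:20815068-20815317, minus strand): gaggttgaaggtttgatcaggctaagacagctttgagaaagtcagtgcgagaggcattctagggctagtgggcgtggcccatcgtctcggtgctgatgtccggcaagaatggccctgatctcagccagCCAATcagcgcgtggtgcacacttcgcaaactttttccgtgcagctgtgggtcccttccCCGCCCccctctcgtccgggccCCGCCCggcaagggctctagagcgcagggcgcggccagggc
Col6a6 (chr9:105828161-105828335, minus strand): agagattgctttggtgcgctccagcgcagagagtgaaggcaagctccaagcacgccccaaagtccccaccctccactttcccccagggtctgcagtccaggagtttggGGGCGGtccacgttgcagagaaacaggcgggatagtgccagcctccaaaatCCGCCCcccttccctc
Col3a1 (chr1:45311288-45311537, plus strand): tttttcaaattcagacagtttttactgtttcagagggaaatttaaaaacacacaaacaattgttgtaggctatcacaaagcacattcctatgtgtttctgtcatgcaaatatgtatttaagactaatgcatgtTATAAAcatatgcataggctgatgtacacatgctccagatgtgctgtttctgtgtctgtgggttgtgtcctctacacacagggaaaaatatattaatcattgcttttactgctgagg
Col24a1 (chr3:145292222-145292471, plus strand): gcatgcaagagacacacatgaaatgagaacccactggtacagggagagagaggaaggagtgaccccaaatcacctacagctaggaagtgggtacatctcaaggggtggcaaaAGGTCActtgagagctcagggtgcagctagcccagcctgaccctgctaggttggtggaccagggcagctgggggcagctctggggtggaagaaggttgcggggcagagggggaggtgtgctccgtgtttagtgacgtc
GGGCGG stood in the stretches of Col4a6, Col5a3 and Col6a6, CCAAT in those of Col4a5 and Col5a3, TATAAA in that of Col3a1 and AGGTCA in that of Col24a1. Among all 32851 RefSeq starts, the 250 upstream bases held GGGCGG in 32.7%, CCAAT in 33.8%, TATAAA in 12.4%, AGGTCA in 14.0% and GGCGCC in 9.59%. A match of letters is a description and not a site. The upstream bases of Col4a1 and Col4a2 lie in exons of each other and of neighbouring transcripts and are not shown.

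The libraries held 9249, 6065 and 7905 barcodes and 44252421, 46317250 and 46901673 UMIs in the order Matrigel-only, Vehicle and Palo, and 8728, 5478 and 7297 cells passed the study's filters. Stromal cells numbered 2085, 1373 and 1184, or 23.9%, 25.1% and 16.2% of the passing cells, with a median of 9082, 17114 and 12955 UMIs. All 10 stromal markers were above 5 CPM in each library, but Dcn and Lum among them helped to choose the cells. In leukocytes 8, 9 and 7 of the 10 also reached 5 CPM, so this limit does not tell the classes apart. Leukocyte markers summed to 121 to 284 CPM in stromal cells against 7469 to 8540 CPM in leukocytes. The same 6 markers were used to choose the leukocytes, so their high level there follows from the choice. Between 11 and 21 barcodes were shared by each pair of libraries, of which 1 was a stromal cell. Pi16 without Acan was found in 1152, 132 and 368 stromal cells, Acan without Pi16 in 0, 744 and 4, both in 1, 35 and 0, and neither in 932, 462 and 812. Vehicle stromal cells also held most of the cartilage markers (4035 CPM summed, against 54.6 in Matrigel-only and 60.1 in Palo) and osteoblast markers (958 CPM, of which Ibsp made 765, against 1.85 and 2.02).

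The non-cartilage collagens made up 8.32% of all stromal UMIs in Matrigel-only against 6.48% in Vehicle and 9.53% in Palo. Col1a1, Col1a2 and Col3a1 alone took 84.4%, 78.0% and 85.1% of these UMIs. The cartilage collagens that were left out took 0.00978%, 0.343% and 0.0161% of stromal UMIs, in Vehicle too less than the non-cartilage collagens. Col1a1, Col1a2 and Col3a1 helped to choose the cells, which favours the non-cartilage side of this comparison. At or above 1000 CPM in all 3 libraries were 8 genes, and 13 stayed under 10 CPM in all 3. Intervals after a level (95% Poisson) or after a log2 ratio (95%, conditional binomial) cover counting error only.

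A gene was called different where its CPM differed at least 2-fold with an interval away from 1, among genes with a mean of 5 CPM over the sets compared and 20 UMIs in all. Vehicle differed from Matrigel-only in 5 genes that were higher and 7 that were lower, of 24 that could be called. Over all 10349 genes, 4.92% were called higher and 9.79% lower. Palo differed from Vehicle in 5 genes higher and 3 lower, beside 6.89% and 5.03% of 10233 genes. Palo differed from Matrigel-only in 1 gene higher and 3 lower, beside 0.665% and 2.12% of 10230 genes. The median log2 ratio of the 24 genes was -0.06, 0.49 and 0.15 in these comparisons, and that of all genes that could be called was -0.04, 0.01 and -0.03. Vehicle is in 2 of the comparisons, so genes low in Vehicle appear in each. Of the cartilage collagens, 7 of 7 that could be called were higher in Vehicle than in Matrigel-only and 6 of 7 were lower in Palo than in Vehicle.

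**Figure D1:**
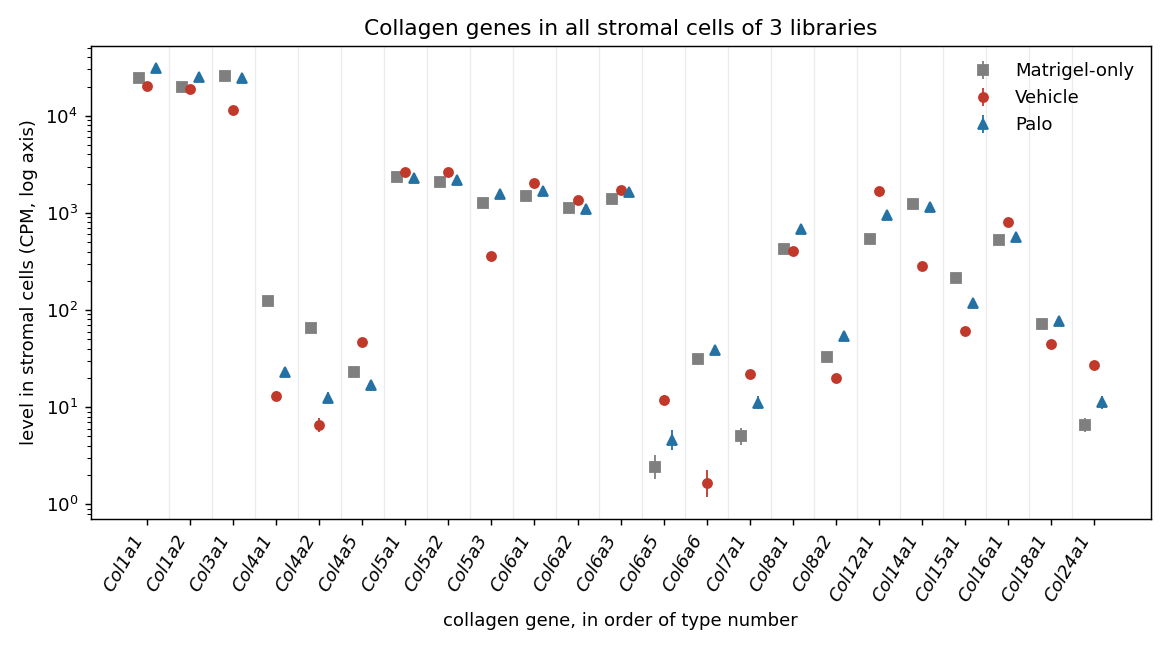
Level of the 23 named collagen genes in all stromal cells of each library, in CPM on a log axis, with 95% Poisson intervals that are mostly smaller than the symbols. Vehicle (circles) lies under the other libraries for Col3a1, Col5a3, Col6a6, Col14a1 and Col15a1 and above them for Col4a5, Col7a1, Col12a1 and Col24a1, while Matrigel-only (squares) stands alone at the top for Col4a1 and Col4a2.

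Of the main fibrillar genes, those of type I differed little and that of type III differed clearly. Col1a1, one chain of the type I molecule, was at 24627 CPM (Matrigel-only), 20370 (Vehicle) and 31403 (Palo). Col1a2, its partner chain, was at 19699, 18805 and 25061 CPM. Both were highest in Palo, by less than 2-fold. Col3a1, the chain of type III in loose and healing tissue, was at 25917 CPM in Matrigel-only against 11387 in Vehicle and 24671 in Palo, so that Vehicle stood alone and the others nearly met. The log2 ratio of Col3a1 was -1.19 (-1.19 to -1.18) for Vehicle over Matrigel-only and 1.12 (1.11 to 1.12) for Palo over Vehicle. These 3 genes helped to choose the stromal cells, and with a choice by Dcn, Lum and other genes that are no collagens Col3a1 was at 25768, 11290 and 24575 CPM.

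Type I chains also shifted against each other. Col1a1 gave 1.25 UMIs per UMI of Col1a2 in Matrigel-only (1.24 to 1.26), 1.08 in Vehicle (1.08 to 1.09) and 1.25 in Palo (1.25 to 1.26). In Vehicle the ratio was 0.987 in Pi16-detected cells, 1.09 in cells with neither gene and 1.10 in Acan-detected cells, each under the lowest of the other libraries' classes, 1.20.

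Among the minor fibrillar genes, the common chains of type V were level and the rare one was not. Col5a1 and Col5a2, which start and limit the thickness of type I fibrils, lay between 2303 and 2669 CPM and between 2071 and 2613 CPM. Col5a3, the chain of type V with the most restricted distribution, was at 1261 CPM (1245 to 1277) in Matrigel-only against 364 (356 to 371) in Vehicle and 1563 (1544 to 1583) in Palo. Vehicle was 3.47-fold lower than Matrigel-only, and Palo 4.30-fold higher than Vehicle. Within type V, 1 chain thus differed while the other chains stayed within 2-fold. Col24a1, a minor fibrillar chain known from developing bone, went the other way, at 6.58 CPM in Matrigel-only against 26.9 in Vehicle and 11.2 in Palo. Its log2 ratio was 2.03 (1.76 to 2.31) for Vehicle over Matrigel-only and -1.26 (-1.50 to -1.02) for Palo over Vehicle.

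The fibril-associated collagens XII and XIV, which bind the surface of type I fibrils in different tissues and at different ages, were exchanged between the libraries. Col12a1 was at 544 CPM (534 to 554) in Matrigel-only against 1676 (1659 to 1693) in Vehicle and 959 (944 to 975) in Palo. Col14a1 was at 1232 CPM (1217 to 1248), 283 (276 to 290) and 1138 (1122 to 1155). Vehicle thus held the most Col12a1 and the least Col14a1, and no intervals overlapped. Col12a1 was 3.08-fold higher in Vehicle than in Matrigel-only, and its log2 ratio of Palo over Vehicle was -0.81, short of 2-fold. Col14a1 was 4.36-fold lower in Vehicle than in Matrigel-only and 4.03-fold higher in Palo than in Vehicle. Col16a1, another fibril-associated chain, was at 520, 803 and 563 CPM and passed 2-fold nowhere. Col20a1 stayed under 5 CPM in stromal cells of every library, and Col19a1 and Col22a1 under 1.

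**Figure D2:**
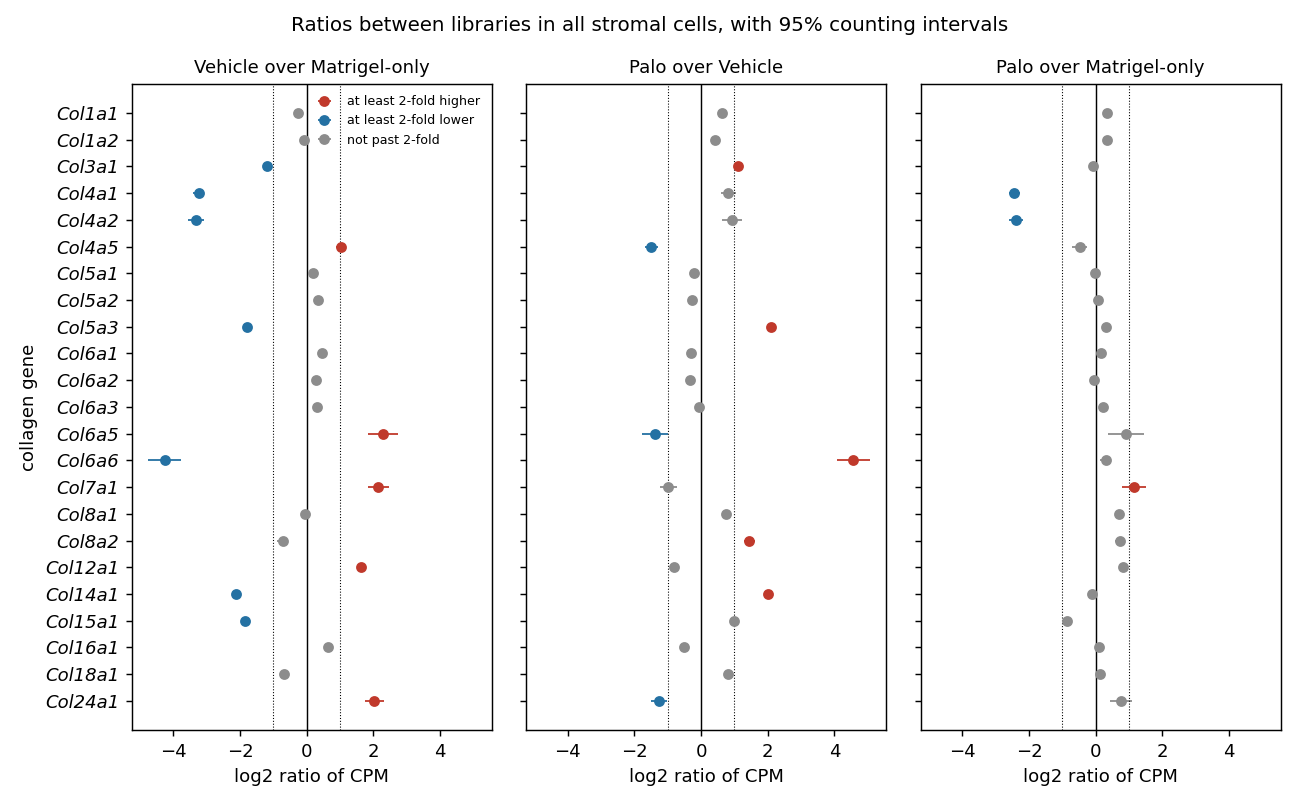
Log2 ratio of CPM between libraries for the 23 named collagen genes in all stromal cells, with 95% counting intervals, dotted lines at 2-fold, and red and blue for genes called higher and lower. The Vehicle over Matrigel-only and Palo over Vehicle panels are wide, from -4.25 to 2.29 and from -1.50 to 4.55, whereas Palo over Matrigel-only has Col4a1 and Col4a2 alone below -2.

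Type IV genes parted by pair. Col4a1, with Col4a2 the general chain of basement membranes, was at 123 CPM (118 to 128) in Matrigel-only against 13.0 (11.6 to 14.5) in Vehicle and 22.7 (20.4 to 25.2) in Palo. Col4a2 was at 65.1 CPM (61.7 to 68.8), 6.57 (5.58 to 7.69) and 12.5 (10.8 to 14.4). Both were high in Matrigel-only alone. Vehicle was 9.47-fold lower for Col4a1 and 9.91-fold lower for Col4a2 than Matrigel-only, and Palo was still 5.40-fold and 5.21-fold lower than Matrigel-only. No other named gene was called lower in Palo than in Matrigel-only. The ratio of Col4a1 to Col4a2 UMIs was 1.89 (1.76 to 2.02), 1.97 (1.62 to 2.41) and 1.82 (1.52 to 2.17), with overlapping intervals.

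Col4a5 ran against this pair. It codes for a chain that joins Col4a3 and Col4a4 products in kidney and Col4a6 product in smooth muscle and some epithelia. Its level was 23.2 CPM (21.1 to 25.4) in Matrigel-only against 47.2 (44.5 to 50.1) in Vehicle and 16.7 (14.8 to 18.9) in Palo. Vehicle was 2.04-fold higher than Matrigel-only and Palo 2.82-fold lower than Vehicle. Col4a6, its neighbour on chromosome X, was also highest in Vehicle, with 82 UMIs or 3.48 CPM against 0.648 in Matrigel-only and 1 UMI in Palo. Within Vehicle, 69 of the 82 UMIs of Col4a6 came from Acan-detected cells, where Col4a5 stood at 58.6 CPM against 32.6 in cells with neither gene and 28.9 in Pi16-detected cells. Col4a4 was found mostly in Pi16-detected cells of Matrigel-only, with 141 of 149 UMIs there, and its level over all stromal cells was 7.43, 0.933 and 2.59 CPM. Col4a4 was also called lower in Palo than in Matrigel-only, with a log2 ratio of -1.52 (-2.06 to -1.01). Col4a3, 71 bases away, had 5 UMIs in Matrigel-only and 0 in Vehicle and Palo, which allows up to 0.127 and 0.189 CPM by a limit of 3 counts.

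In type VI, as in type V, the common chains stayed within 2-fold. The rare chains Col6a6 and Col6a5 did not, and went opposite ways between Vehicle and Matrigel-only. Col6a1, Col6a2 and Col6a3, the chains of the usual beaded filament, lay at 1495, 1124 and 1399 CPM in Matrigel-only, 2048, 1374 and 1725 in Vehicle and 1675, 1099 and 1641 in Palo, all within 2-fold. Col6a6, an alternative to the Col6a3 chain, was at 31.4 CPM (29.0 to 33.9) in Matrigel-only against 1.65 (1.18 to 2.26) in Vehicle and 38.8 (35.8 to 42.0) in Palo. This was the widest ratio among the named genes over all stromal cells, 19.0-fold lower in Vehicle than in Matrigel-only and 23.5-fold higher in Palo than in Vehicle. In counts, 629, 39 and 615 UMIs of Col6a6 lay in 440, 27 and 341 cells. Col6a5, another alternative chain and the neighbour of Col6a6 on chromosome 9, was highest in Vehicle, at 2.44, 11.9 and 4.61 CPM. Few cells carried Col6a5: in Vehicle, 62 of 1373 stromal cells held its 281 UMIs, and in the Pi16-detected class 5 cells held 84.1% of 82 UMIs.

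Col7a1, the anchoring fibril chain made by keratinocytes and fibroblasts of skin, was at 4.99 CPM (4.06 to 6.07) in Matrigel-only against 22.0 (20.2 to 24.0) in Vehicle and 11.1 (9.53 to 12.9) in Palo. It was the gene called higher in Palo than in Matrigel-only, with a log2 ratio of 1.16 (0.79 to 1.53), and in Vehicle it was 4.42-fold higher than in Matrigel-only. Of the keratinocyte markers in stromal cells, Krt10 made 30.1, 16.2 and 30.0 CPM of a sum of 30.9, 18.0 and 30.6 CPM. Krt10 and the sum were thus lowest in Vehicle, where Col7a1 was highest. The other 5 markers together made 0.748, 1.74 and 0.568 CPM, highest in Vehicle. In Matrigel-only and Palo this is under 1 CPM, and the order of these libraries is not read. Which cells made Col7a1 was not tested. The short-chain genes Col8a1 and Col8a2, which build open lattices such as that of the corneal basement membrane, were both highest in Palo. Col8a1 was at 421, 408 and 690 CPM, and Col8a2 at 32.7, 19.9 and 53.9 CPM, and Palo was 2.71-fold higher than Vehicle for Col8a2.

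The genes of types XV and XVIII, proteoglycan collagens of the basement membrane zone, were lowest in Vehicle. Col15a1 was at 216 CPM (210 to 223) in Matrigel-only against 60.3 (57.2 to 63.5) in Vehicle and 119 (114 to 125) in Palo. Vehicle was 3.58-fold lower than Matrigel-only, and the log2 ratio of Palo over Vehicle was 0.98, just under 2-fold. Col18a1, whose end fragment is endostatin, was at 71.1, 44.8 and 77.8 CPM and was not called in any comparison of libraries. The transmembrane and remaining genes were scarce. Col23a1 lay between 4.75 and 7.07 CPM and Col28a1 between 0.947 and 5.74, and Col6a4, Col13a1, Col17a1, Col25a1 and Col26a1 lay between 0 and 1.40.

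Genes that process, bind or join collagens were counted by lists. Of 32 collagen biosynthesis genes, 30 could be called for Vehicle over Matrigel-only, 4 higher and 3 lower, beside 4.92% and 9.79% of all genes. The lower calls were thus about as frequent as among all genes. P3h2, a prolyl 3-hydroxylase that acts on type IV chains, was at 1.95, 20.3 and 1.26 CPM, and Colgalt2, a collagen galactosyltransferase, at 6.28, 17.5 and 1.45. Adamts14, which trims the amino end of fibrillar procollagens, was at 64.3, 10.2 and 69.6 CPM, and Loxl1, a crosslinking enzyme, at 982, 223 and 654. In Palo over Vehicle, 2 of 30 were higher and 4 lower, beside 6.89% and 5.03% of all genes, and these 4 genes were among them in the opposite direction. There the higher calls were about as frequent as among all genes. Of 9 collagen receptors that could be called, 2 were higher and 2 lower in Vehicle than in Matrigel-only, beside 4.92% and 9.79% of all genes. Cspg4, a proteoglycan that binds types V and VI, was at 11.3, 79.6 and 15.3 CPM. Antxr2, a receptor for types IV and VI, was at 97.6, 21.0 and 69.4 CPM. In Palo over Vehicle, 1 receptor was higher and 3 were lower, beside 6.89% and 5.03% of all genes.

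Partners of type IV in the basement membrane were counted in the same way. Of 12 that could be called, 2 were higher and 4 lower in Vehicle than in Matrigel-only, beside 4.92% and 9.79% of all genes. Lower calls were thus also the more frequent among all genes. The list median was -0.81 on the log2 scale, beside -0.04 for all genes. In Palo over Vehicle 4 were higher and 2 lower, beside 6.89% and 5.03% of all genes. The list median was 0.59 there, beside 0.01 for all genes. Nid1, which links laminin to type IV networks, was at 1347, 186 and 868 CPM, and Lama2, a laminin chain of muscle, nerve and mesenchyme, at 115, 14.1 and 71.6. Nid2 went the other way at 12.0, 31.2 and 14.4 CPM. Unlike Col4a1 and Col4a2, Nid1 and Lama2 were within 2-fold between Palo and Matrigel-only.

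Because the mix of Pi16-detected and Acan-detected cells differed between the libraries, the levels were also taken within these classes. In cells with neither gene, Vehicle differed from Matrigel-only in 5 genes higher and 7 lower of 24, beside 3.03% and 7.31% of 10213 genes. Palo differed from Vehicle there in 5 genes higher and 3 lower of 24, beside 5.7% and 3.78% of 10105 genes. The median log2 ratio of the collagen genes was 0.12 and 0.18 in these comparisons, and that of all genes -0.06 and 0.02. Col3a1 did not pass 2-fold in this class, at 21386, 12600 and 21564 CPM, while Col8a2 did in both comparisons, at 47.4, 22.7 and 57.8. Cells with neither gene were deeper in Vehicle, with a median of 17375 UMIs against 10137 and 13830, and with the classes set after thinning each cell to 3000 UMIs the log2 ratio of Vehicle over Matrigel-only in this class was -3.47 for Col4a1 and -3.40 for Col4a2, against -3.95 and -3.94 before.

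Pi16-detected cells gave another split. There Vehicle differed from Matrigel-only in 4 genes higher and 2 lower of 24, beside 2.96% and 3.88% of 10219 genes, and Palo differed from Vehicle in 2 genes higher and 5 lower of 25, beside 2.73% and 3.54% of 10150 genes. Higher in Vehicle than in Matrigel-only were Col6a5, Col12a1, Col24a1 and Col28a1, and lower were Col4a4 and Col6a6. Higher in Palo than in Vehicle were Col6a6 and Col8a2, and lower were Col4a1, Col4a2, Col6a5, Col24a1 and Col28a1. Col28a1, a rare chain singled out after its values were seen, was at 5.79 CPM in this class of Matrigel-only against 21.3 in Vehicle and 0.964 in Palo, and in Vehicle 5 of the 132 cells held 59.0% of its 39 UMIs.

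**Figure D3:**
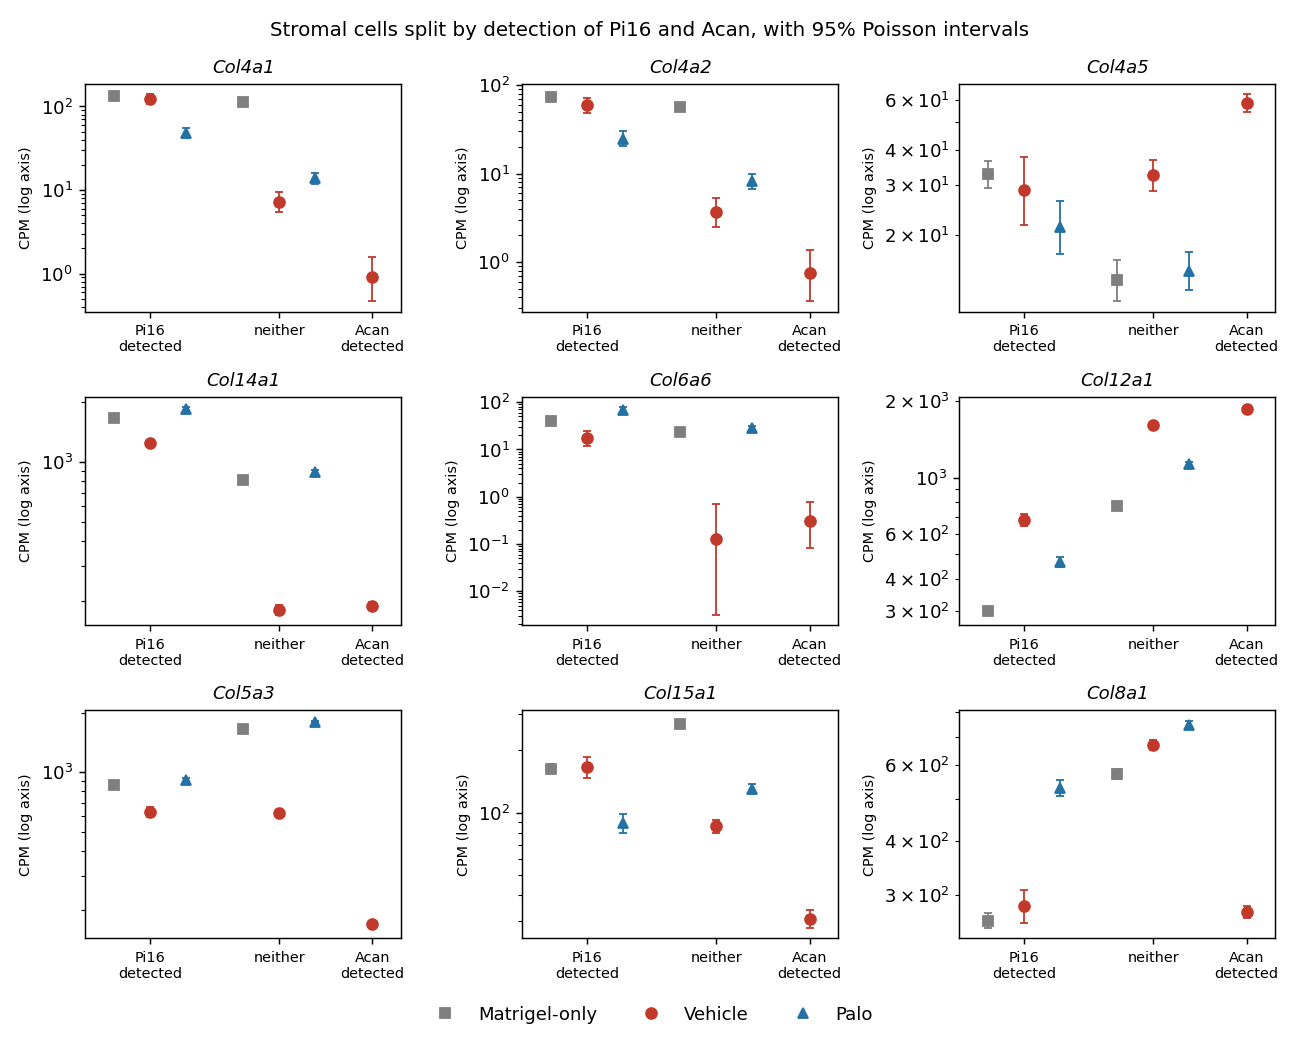
Level of 9 collagen genes (CPM, log axes that differ between panels) in stromal cells with Pi16, with neither gene and, for Vehicle, with Acan, with 95% Poisson intervals and 1 symbol per library. For Col4a1, Col4a2 and Col14a1 the Vehicle symbol is much lower outside the Pi16 class, by 16.8-fold, 15.9-fold and 6.90-fold in cells with neither gene, and Col12a1 is lower in the Pi16 class in each library.

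Pi16-detected cells were compared with cells of neither gene inside each library. In all 3 libraries Col14a1 was called higher, and Col12a1 and Col18a1 were called lower, 1 and 2 of 21 genes that could be called throughout, beside 2.2% and 0.998% of 9717 genes. Col14a1 was at 1664 against 815 CPM in Matrigel-only, 1246 against 181 in Vehicle and 1845 against 891 in Palo. Col12a1 was at 301 against 777, 685 against 1608 and 468 against 1131 CPM. Col18a1 was at 35.7 against 105, 28.9 against 72.3 and 35.7 against 93.4 CPM. The Col14a1 call was close to the limit outside Vehicle, with log2 ratios of 1.03 in Matrigel-only and 1.05 in Palo. It was lost with means of per-cell CPM (0.90 and 0.98), without cells holding endothelial UMIs (0.97 and 0.91) and, in Matrigel-only, after thinning (just under 2-fold), with the sign kept in all 3 libraries. The Col18a1 call was lost in Vehicle when stromal cells were chosen without collagens (-0.75). The Col12a1 call was lost in Palo without cells holding endothelial UMIs (-0.90). Leaving out those cells took mostly Pi16-detected cells, from 1152 to 881 in Matrigel-only and from 368 to 248 in Palo. Cells with neither gene went from 932 to 918 and from 812 to 787. The stromal cells left out in Matrigel-only held 777 endothelial UMIs, of which 6 were Pecam1 and 0 Cdh5. Within the Pi16 class, Col14a1 in Vehicle was within 2-fold of the other libraries, and Col12a1 was 2.27-fold higher in Vehicle than in Matrigel-only. Detection of a transcript depends on depth, and the Pi16-detected cells had the lower median UMI count in each library, 8415 against 10137, 13362 against 17375 and 11022 against 13830.

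The type IV pair differed widely between the classes of Vehicle. In Matrigel-only, Col4a1 was at 134 CPM (Pi16) and 112 CPM (neither). In Vehicle it was at 122, 7.28 and, in Acan-detected cells, 0.904 CPM. In Palo it was at 48.0 and 13.9 CPM. Vehicle cells with Pi16 and no Acan therefore stood at the Matrigel-only level, while those with neither gene or with Acan alone stood far below it. The 35 Vehicle cells with both genes are in none of these classes. Col4a2 gave 73.9 and 56.8 CPM in Matrigel-only, 58.9, 3.70 and 0.753 in Vehicle, and 24.8 and 8.19 in Palo. In Pi16-detected cells Palo was lower than Vehicle, with a log2 ratio of -1.35 (-1.63 to -1.07) for Col4a1 and -1.25 (-1.65 to -0.84) for Col4a2. Among cells with neither gene it was higher, with 1.15 (0.53 to 1.80) for Col4a2, but this direction turned to -1.27 for Col4a2 when stromal cells were chosen without collagens. Without cells holding mural UMIs it was 1.82.

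These type IV values rest on few Vehicle cells. Of 57 Col4a1 UMIs in Vehicle cells with neither gene, 5 of 462 cells held 82.5%, and 12 cells held all. In the Pi16 class 47 of 132 cells held 224 UMIs, and 5 of them 40.2%. In Matrigel-only 746 of 2085 cells held 2462 UMIs and 5 of them 6.74%. The share of Vehicle cells with a Col4a1 UMI was 35.6% in the Pi16 class and 2.60% in the class with neither gene. Thinned to 3000 UMIs a cell, these shares were 22.9% and 1.59%. In Vehicle leukocytes the share was 0.294% (0.247% thinned) at a median of 3478 UMIs, and the pooled level 3.36 CPM. These leukocytes held more Pecam1, an endothelial and leukocyte gene, than those of the other libraries, at 46.5 CPM against 7.64 in Matrigel-only and 4.85 in Palo, and how much of their type IV level was free RNA was not tested.

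Markers of other cells that make type IV collagen were read beside these values. The 8 endothelial markers summed to 61.1, 11.7 and 39.2 CPM in stromal cells. Of these, Tek made 39.1 CPM in Matrigel-only, and the defining markers Pecam1 and Cdh5 were each under 1 CPM in all 3 libraries. The 7 mural markers summed to 50.3, 19.5 and 33.0 CPM, led by Kcnj8, and the 5 adipocyte markers to 7.13, 0.381 and 0.126. Each of these sums was highest in Matrigel-only, as Col4a1 was. Markers of Schwann cells (10.2, 23.7 and 4.93 CPM, led by S100b) and of skeletal muscle (2.99, 21.1 and 8.97 CPM, led by Des) were instead highest in Vehicle. The log2 ratio of Vehicle over Matrigel-only for Col4a1 was -3.24 with all stromal cells. It was -3.44 without cells holding 2 endothelial UMIs, -3.71 without those holding 2 mural UMIs and -3.35 without those holding an adipocyte UMI. In Matrigel-only, the cells left out for endothelial UMIs held 777 of these, of which 6 were Pecam1 and 0 Cdh5. Such a filter need not take out endothelial cells, and which cells made Col4a1 was not tested.

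The direction of Palo against Vehicle over all stromal cells was not settled for the type IV pair. The log2 ratio was 0.81 for Col4a1 and 0.93 for Col4a2. When stromal cells were chosen without collagens, 33 more Vehicle cells entered that held 3297 CPM of endothelial markers and 1278 CPM of Col4a1, and the ratios became -0.15 and -0.24. With the Pi16 and neither classes weighted as in Matrigel-only they were -1.11 and -0.98. Vehicle over Matrigel-only kept its sign, at -2.34 and -2.18 with the first choice of cells and at -0.81 and -0.95 with the weighted classes, where it no longer reached 2-fold.

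The weighting used for the type IV pair, with Acan-detected cells left out, was applied to all named genes. Over Matrigel-only, Vehicle then still passed 2-fold for Col6a5 (3.54), Col7a1 (2.09), Col24a1 (1.44), Col12a1 (1.10) and Col6a6 (-1.74), all log2 ratios. Col3a1 (-0.54), Col14a1 (-0.74), Col15a1 (-0.69), Col5a3 (-0.95) and Col4a5 (0.33) no longer did. For Palo over Vehicle, Col6a6 (2.39), Col8a2 (1.48), Col5a3 (1.06), Col6a5 (-1.92) and Col24a1 (-1.08) still passed, Col7a1 (-1.24) now did, and Col14a1 (0.88), Col3a1 (0.63) and Col4a5 (-0.72) did not. The sign of Palo over Vehicle turned for Col15a1, to -0.28. On the Vehicle side most of the weight lies on 132 Pi16-detected cells. For each gene, the 5 cells with the most UMIs held a large part there. These shares were 84.1% of 82 UMIs for Col6a5, 66.7% of 12 for Col7a1 and 50% of 24 for Col24a1. They were 40.6% of 32 UMIs for Col6a6 and 25.4% of 1255 for Col12a1. For Col8a2 the share was 64% of 25 UMIs, for Col15a1 33.2% of 304 and for Col5a3 15.9% of 1154.

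Col5a3 and Col15a1 followed yet another order, with Pi16-detected cells below the rest in Matrigel-only and Palo. Col5a3 was at 859 CPM (Pi16) against 1649 (neither) in Matrigel-only, 630 against 621 in Vehicle and 907 against 1798 in Palo. Vehicle cells with neither gene were 2.65-fold below those of Matrigel-only and Palo 2.89-fold above them, whereas Vehicle Pi16-detected cells were within 2-fold of the other libraries. Col15a1 was at 163 against 267, 166 against 85.9 and 88.9 against 130 CPM. Col6a6 was at 39.6 against 23.4 CPM in Matrigel-only and 69.4 against 28.2 in Palo, and in Vehicle 32 UMIs in 132 Pi16-detected cells gave 17.5 CPM while 462 cells with neither gene held 1 UMI. The log2 ratio of Palo over Vehicle for Col6a6 was 1.99 (1.46 to 2.57) in Pi16-detected cells and 7.79 (5.30 to 13.09) in cells with neither, where the upper bound rests on that 1 UMI.

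Acan-detected cells were frequent only in the Vehicle library, where 744 of 1373 stromal cells had Acan and no Pi16. Against Vehicle cells with neither gene, 0 of 21 collagen genes were called higher and 5 were called lower, beside 2.75% and 2.54% of 10037 genes. The 5 were Col5a3 (170 against 621 CPM), Col8a1 (273 against 670), Col15a1 (30.9 against 85.9), Col18a1 (30.7 against 72.3) and Col7a1 (16.1 against 37.3). The median log2 ratio was -0.37 for the collagen genes and -0.01 for all genes. Median depth was alike in the classes, 17319 and 17375 UMIs. The 7 cartilage collagens that could be called were all higher in Acan-detected cells, where they made 0.565% of UMIs while the other collagens made 5.77%. This class was chosen by Acan, itself a cartilage gene, which favours higher cartilage collagens. Col1a1, Col1a2 and Col3a1, which helped to choose the stromal cells, made 4.43% of UMIs there, which favours the other collagens. Col6a3 was out of step with Col6a1, at 0.692 UMIs per Col6a1 UMI in Acan-detected cells (0.680 to 0.705) and 1.13 in cells with neither gene (1.10 to 1.15).

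The Acan-detected cells were further ordered by their Col2a1 UMIs, of which 350 cells had 0, 141 had 1 to 9 and 253 had 10 or more. Col1a1 went from 21948 to 20463 to 12960 CPM over these bins, Col3a1 from 11441 to 9595 to 5301 and Col5a3 from 274 to 166 to 35.6. Col8a1 went from 407 to 325 to 72.3 CPM. In the last bin these genes were lower than in the first by more than their intervals. Of these, Col1a1 and Col3a1 helped to choose the stromal cells. Col6a1, Col5a2, Col12a1 and Col16a1 changed less, at 2099 against 2081, 2560 against 2309, 1990 against 1711 and 863 against 994 CPM in the first and last bin. Among these, the intervals of the first and last bin overlapped for Col6a1 only. Col4a5 was higher in each further bin, at 43.7 (38.7 to 49.3), 52.7 (43.9 to 62.8) and 81.0 (73.1 to 89.5) CPM, though the intervals of the earlier bins overlapped. The bins are cells of 1 library and differed little in depth, with medians of 16923, 16521 and 18211 UMIs.

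**Figure D4:**
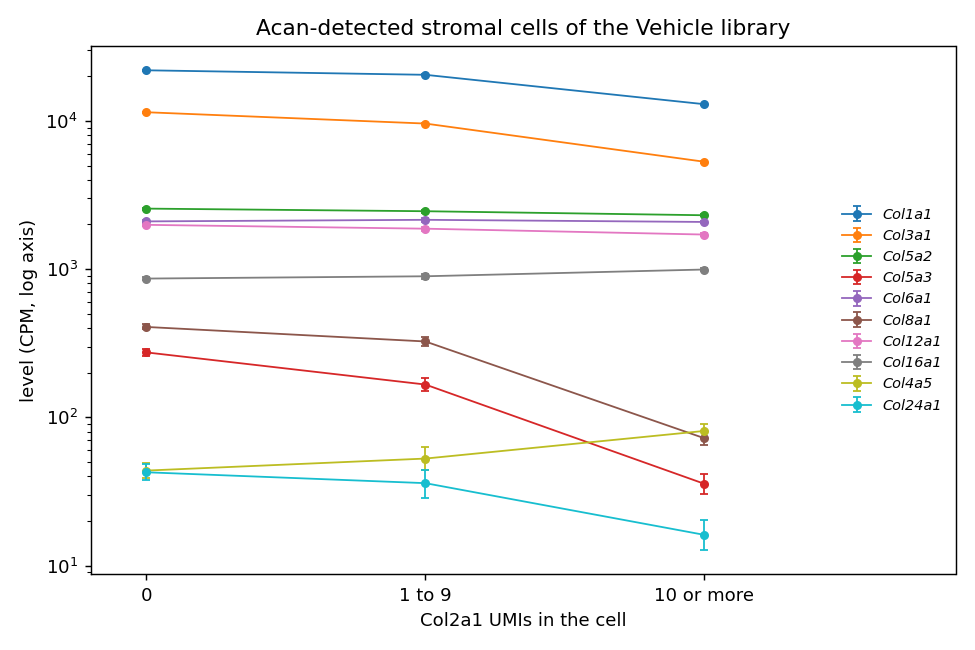
Level of 10 collagen genes (CPM, log axis) in Acan-detected stromal cells of the Vehicle library, by the number of Col2a1 UMIs in the cell, with 95% Poisson intervals. Col5a3, Col8a1, Col24a1, Col3a1 and Col1a1 are lower in cells with 10 or more Col2a1 UMIs, Col6a1, Col12a1 and Col16a1 run nearly flat, and Col4a5 goes from 43.7 to 81.0 CPM.

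The level in leukocytes of the same libraries served as a rough measure of free RNA for collagen genes above 100 CPM in stromal cells. Leukocytes were chosen with under 0.2% of stromal UMIs, which include those of Col1a1, Col1a2 and Col3a1. This choice leaves out cells with much free RNA of these genes, so the measure can be too low. Among the 13 to 15 genes above 100 CPM in stromal cells, the leukocyte level was a median of 0.750% of the stromal level (Matrigel-only), 1.13% (Vehicle) and 0.451% (Palo), and at most 2.08%. Col14a1 gave that highest share, in Vehicle, with 5.89 CPM in leukocytes against 283 in stromal cells. The lowest Vehicle level of Col14a1 in a stromal class, 181 CPM, was far above it. Genes under 100 CPM in stromal cells are not covered by these shares. In Vehicle the share was 25.9% for Col4a1, 22.2% for Col4a2 and 7.92% for Col18a1, but 1.07% for Col4a5. Of 3740 Vehicle leukocytes, 0.294% held all 53 Col4a1 UMIs, and 0.294% held all 23 Col4a2 UMIs. The shares of this pair thus rest on few barcodes and are not read as free RNA. The Col4a1 level in Acan-detected Vehicle cells, 0.904 CPM, came from 12 UMIs in 11 of 744 cells. It was below the 3.36 CPM of Vehicle leukocytes, and how much of it was free RNA was not tested.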

How the data were processed

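Day 5 ectopic masses of CD-1 mice were profiled with the 10x Genomics Chromium system, 1 library for each of 3 groups (Matrigel-only, Vehicle, Palo). The authors deposited raw UMI counts per gene and barcode, made with Cell Ranger 3.0.2 on mm10 per the submitters' processing notes. Any step against free RNA, and the release of the annotation, is not given in the sources used here. Cells with 200 to 6000 genes and at most 5% mitochondrial UMIs were kept, as in the study. UMI counts were summed over the cells of a class and scaled to CPM. Strand and near-identical gene copies were not examined further, and 35 symbols occurred on more than 1 row, none of them a collagen of the set.

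The collagen genes, gene lists and comparisons were chosen with earlier results of these data known. Genes with at least 10 CPM in stromal cells of a library were named, and of each list up to 2 genes past 2-fold in each direction. Leukocytes were passing cells with under 0.2% of stromal UMIs and at least 2 UMIs of 6 leukocyte genes. Cells are not replicates, so no test between conditions was run. Poisson and conditional binomial (Clopper-Pearson) intervals cover counting error only, and a 0 is given a limit of 3 counts. Thinned shares drew 3000 UMIs a cell, leaving out 202, 69 and 53 shallower stromal cells. The number of passing cells with 0.5% to 2% of stromal UMIs, around the limit, was 94, 151 and 18. All 36 genes matched GENCODE vM21 (GRCm38.p6) by ID. Python 3.11.15, numpy 2.4.6, scipy 1.17.1, scanpy 1.11.5 (Scrublet), R 4.3.3 and edgeR 4.0.16 (TMM factors only) were used.

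The alternatives were the limit for stromal cells, a limit without collagens, 10% mitochondrial UMIs, doublets or cells with macrophage UMIs left out, TMM, other totals, per-cell means, other CPM floors, a pseudocount of 5, stricter or thinned detection of Pi16 and Acan, and weighted classes. Leaving out cells with endothelial, mural or adipocyte UMIs was added after the data were seen. Scrublet's own thresholds marked 1, 3 and 0 cells and so did not work, and the highest scores, 609, 240 and 426 cells, were taken instead.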

Additional observations from a re-analysis of the deposited data

Results flagged for a closer look

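The difference between Palo and Vehicle in 3 collagen genes had opposite signs in the 2 shared classes of stromal cells, which was not tested since each library is 1 sample. For Col4a1 the log2 ratio of Palo over Vehicle in Pi16-detected cells minus that in cells with neither gene was -2.28, from -1.35 and 0.93. For Col4a2 it was -2.39, from -1.25 and 1.15. For Col15a1 it was -1.50, from -0.90 and 0.60. When stromal cells were chosen without collagens the signs were no longer opposite for Col4a1 and Col4a2, whose ratios were then -1.81 and -1.94 in Pi16-detected cells and below 0 for both in cells with neither gene, at -1.27 for Col4a2. The few Vehicle cells that hold the type IV transcripts, described with these genes, bear on the first 2 values. A like limit holds for Col15a1, as 5 of the 132 Vehicle Pi16-detected cells held 33.2% of its 304 UMIs there.

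Col20a1, a fibril-associated gene, was above its stromal level in leukocytes of 2 libraries by more than the counting interval, and leukocytes enter no comparison of stromal cells. It stood at 7.18 CPM in leukocytes of Matrigel-only (3.64 in stromal cells) and at 4.71 in those of Palo (1.89 in stromal cells). In Vehicle it was at 3.04 in leukocytes and 4.24 in stromal cells. Col17a1 in Vehicle was at 1.96 CPM in leukocytes and 1.40 in stromal cells, within counting error, and Col13a1 (Vehicle) and Col19a1 (Matrigel-only) had 1 leukocyte UMI and 0 stromal UMIs.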

How the results depend on the processing

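No paired analysis was possible because each group is 1 library, and for the same reason no replicate could be left out. Of 226 recomputed counts of genes past 2-fold, 202 stayed within 1.5 times, and of 1336 recomputed log2 ratios of named genes 1023 stayed within their counting interval, 312 moved and 1 called ratio changed sign. That was Col4a2 for Palo over Vehicle in cells with neither gene, at -1.27 with the stromal limit without collagens, where that Vehicle class went from 462 to 476 cells. With that limit 5 genes were lower in Palo than in Vehicle among cells with neither gene, and 1 was lower in Pi16-detected cells in all 3 libraries. With means of per-cell CPM, 0 genes were higher and 4 lower in Pi16-detected cells in all 3 libraries, and after thinning before detection 0 were higher and 5 lower. Detection by 2 UMIs and thinning each gave 1 gene higher in Acan-detected cells. With no CPM floor, Palo was lower than Vehicle in 6 genes over all cells and 5 in cells with neither gene, Acan-detected cells were higher in 1 and lower in 8, and Pi16-detected cells were higher in 2. With a floor of 20 CPM, Vehicle was higher than Matrigel-only in 2 genes over all cells and 3 in cells with neither gene, Palo was lower than Vehicle in 1 gene over all cells and higher in 3 in cells with neither gene, and 0 were higher in Palo than in Matrigel-only. With 5 CPM added, these last counts were 1 lower in Palo than in Vehicle, 0 higher in Palo than in Matrigel-only, and 3 higher in Vehicle than in Matrigel-only in cells with neither gene. Without cells with endothelial UMIs, 0 genes were higher and 1 lower in Pi16-detected cells in all 3 libraries, and without cells with mural UMIs 8 were higher in Palo than in Vehicle. These recomputed counts have no share over all genes beside them, since that share was taken for the main setting only. Such counts show how the calls move, and not whether collagens differ from other genes. Floors change which genes can be called by construction. They leave every log2 ratio as it was, so ratios recomputed under other floors count among the 1023 by construction. For the other changes the cause was not tested. Depth limits the rare genes most: Vehicle Pi16-detected cells are 132, and a 0 there allows 1.64 CPM.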
